A study of Mus musculus with 9 samples.

Results

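Tumour-associated macrophages (TAMs) with high F4/80 were set against peritoneal exudate cells (PECs) on 6 of the 9 arrays of the study: 3 arrays of F4/80high TAMs and 3 of PECs, chosen by their labels alone. All samples came from C57BL/6J mice. The TAMs were taken from a fibrosarcoma and divided by F4/80, a surface protein of macrophages, and the PECs, which the series uses as control macrophages, came from the peritoneum. The remaining 3 arrays hold F4/80low TAMs of the same kind of tumour. The labels give no age, tumour line, elicitation of the peritoneal cells or other sort marker, and the comparison changes tissue, tumour and cell collection together, so their parts cannot be told apart. The samples of a group are named biological replicates without a statement that each came from a separate animal, so the p-values measure spread between these samples, part of which may be technical.

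Macrophages sense microbial and damaged-cell products through Toll-like receptors and cytosolic nucleic acid sensors. These receptors release NF-kappaB and interferon regulatory factors, which induce cytokines, chemokines and interferon beta. Interferon then acts through STAT2 and IRF9, among others, on many antiviral and antigen presentation genes. In the peritoneal cavity, resident macrophages run a separate programme under GATA6 and are rich in receptors for dying cells and lipid, whereas macrophages of tumours derive largely from blood monocytes.

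Each array carried 62976 spots, and on the 6 arrays between 36.1% and 38.3% of the 59305 non-control spots were well above background. Levels are log2 intensities relative to the array's 75th percentile, and with 3 arrays a group the median standard error (SE) of a log2 fold change was 0.236; the number of arrays sets this limit. PEC replicate 1 shares slide 1 with all TAM arrays, whereas PEC replicates 2 and 3 lie on slide 2. All 24 listed macrophage identity genes were above background on every PEC and every F4/80high array. The sort marker Adgre1, which encodes F4/80, was at 5.77, 5.71 and 6.17 in PECs and 6.21, 5.89 and 5.71 in F4/80high TAMs. These values overlapped (log2 fold change 0.05, SE 0.27, adjusted p 0.882).

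Of 16469 genes tested with limma (all 9 arrays in the fit, Benjamini-Hochberg adjusted p below 0.05), 8739 or 53.1% differed between F4/80high TAMs and PECs. 4121 genes, or 25.0%, were higher and 4618, or 28.0%, were lower in the TAMs. The median absolute log2 fold change of the called genes was 1.3, and rises reached further than falls: 710 genes rose and 423 fell by more than 3 on the log2 scale, 213 and 83 by more than 5. For 10739 genes, or 65.2%, the 3 arrays of one group lay apart from the 3 of the other. With slide as a block, so that PEC replicate 1 alone stands against the TAMs, 5633 genes or 34.2% were called. 5390 of the 8739 genes, or 61.7%, were called there in the same direction, and 1 had the opposite sign. Of the 2470 genes called with a change over 2 on the log2 scale, 2264 kept their call and direction under the block.

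**Figure D1:**
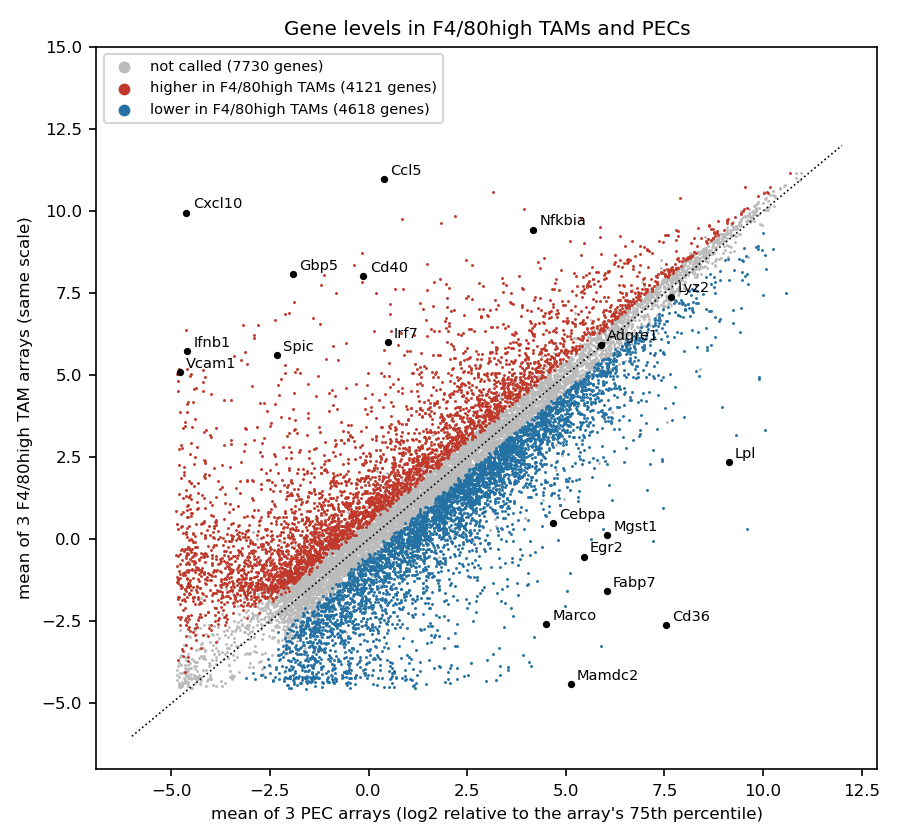
Mean level of each of 16469 genes in PECs (x axis) and in F4/80high TAMs (y axis), both in log2 relative to the array's 75th percentile, n = 3 arrays each. Red and blue points are the 4121 genes called higher and the 4618 called lower, grey points were not called, the dotted line marks equal levels and black points mark genes named in the text. Cxcl10 and Ifnb1 lie at the left edge, at the dim end of the PEC scale, and Cd36 and Mamdc2 lie at the lower right.

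Genes detected above background throughout 1 group but never in the other mark the sharpest contrasts. There were 543 such genes in F4/80high TAMs, 117 of them at least 10-fold higher, and 682 in PECs, 51 of them at least 10-fold lower in the TAMs. For these genes the fold is a lower bound, taken against the dimmest spot that the scanner software called well above background. Ifnb1, which encodes interferon beta, was at −4.46, −4.67 and −4.68 in PECs and 6.25, 5.50 and 5.44 in F4/80high TAMs. No PEC array carried it above background, and the TAMs were at least 312-fold higher (adjusted p 3.47e-08). Its probe lies on chromosome 4 (mm9, 88168023 to 88168082); exon annotation was not used here. The interferon-induced chemokine Cxcl10 was at −4.47, −4.67 and −4.71 in PECs and 9.69, 10.30 and 9.88 in F4/80high TAMs, at least 5837-fold higher. The other largest bounds were for Marcksl1, a regulator of the actin cytoskeleton (at least 540-fold), and for the fever cytokines Il1b (487-fold) and Il6 (216-fold). In the opposite direction, Cd36, a receptor for fatty acids and oxidised lipoprotein, was at 6.99, 7.80 and 7.81 in PECs and −2.77, −2.51 and −2.55 in F4/80high TAMs, at least 866-fold lower. The transmitter gene Npy was at 5.68, 5.81 and 6.18 in PECs and −4.49, −2.19 and −3.03 in F4/80high TAMs, at least 278-fold lower. Mamdc2 (at least 163-fold), Vsig8 (85.8-fold) and Retnla, a secreted marker of alternative activation (81.4-fold), were the other PEC genes with the largest bounds. The fitted folds of such dim genes depend on the background correction: with normexp, which adds an offset of 50, 121 of the 317 named genes had a fold change smaller by over 1.5 times.

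Stretches of promoters are shown for genes of the interferon and NF-kappaB responses because members of both are among the largest rises. An interferon-stimulated response element (ISRE) was searched as GAAANNGAA and an NF-kappaB site as GGGANTTTC, on both strands, within the 250 bases before each RefSeq start (build GRCm38.p6). Capitals mark the matches of the motif named on each line, and each stretch runs 5′ to 3′ on the strand of its gene. A match is a description of letters, not of a bound site.
Cxcl10, ISRE, chr5:92349054-92349139, minus strand: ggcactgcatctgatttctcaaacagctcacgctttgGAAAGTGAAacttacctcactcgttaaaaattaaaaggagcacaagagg
Gbp5, ISRE, chr3:142496730-142496818, plus strand: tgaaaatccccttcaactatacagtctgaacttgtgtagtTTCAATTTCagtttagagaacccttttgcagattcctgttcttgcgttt
Ifit3b, ISRE, chr19:34607730-34607871, plus strand: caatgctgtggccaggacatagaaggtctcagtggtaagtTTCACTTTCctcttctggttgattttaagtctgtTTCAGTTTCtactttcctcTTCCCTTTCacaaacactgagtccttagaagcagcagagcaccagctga
Il6, NF-kappaB site, chr5:30013030-30013113, plus strand: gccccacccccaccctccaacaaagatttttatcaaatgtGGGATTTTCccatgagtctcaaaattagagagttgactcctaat
Cxcl2, NF-kappaB site, chr5:90903762-90903850, plus strand: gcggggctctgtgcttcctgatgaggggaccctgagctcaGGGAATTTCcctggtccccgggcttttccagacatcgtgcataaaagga
Cxcl3, NF-kappaB site, chr5:90785988-90786076, plus strand: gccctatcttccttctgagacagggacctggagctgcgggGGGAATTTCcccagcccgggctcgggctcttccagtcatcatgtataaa
Nfkbia, NF-kappaB site, chr12:55492648-55492800, minus strand: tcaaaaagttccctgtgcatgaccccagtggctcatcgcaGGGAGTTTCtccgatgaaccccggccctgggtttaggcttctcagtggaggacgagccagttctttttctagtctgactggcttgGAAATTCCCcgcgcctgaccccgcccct
The Ifit3b stretch holds 3 ISRE matches and the Nfkbia stretch 2 NF-kappaB matches, the others 1 match each of the motif named. The Nfkbia stretch also holds 1 ISRE match, 53 bases before the start, left in lower case.

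A promoter was at hand for 9262 of the 16469 genes tested. Shares are of genes with a promoter, and a gene counts when any of its promoters holds a match. The ISRE letters stood in 8.18% of all 27025 such genes and in 7.87% of genes tested. Of 1942 genes called higher 10.5% held them, and of 3185 called lower 6.62%. Among genes higher by more than 3 on the log2 scale the share was 19.2% (77 of 402), and among genes lower by more than 3 it was 7.74% (23 of 297). By list, 9 of 10 guanylate-binding protein and immunity-related GTPase genes and 12 of 24 antiviral effector genes held the ISRE letters. The NF-kappaB letters stood in 1.11% of all genes with a promoter. Of genes higher by more than 3 they stood in 4.98% (20 of 402), and of genes lower by more than 3 in 0.337% (1 of 297). They stood in 4 of 8 CXC chemokine genes and in 3 of 14 genes of NF-kappaB subunits and inhibitors. With only the first promoter of each gene taken, 28 promoters held both motifs, and in 3 of them the matches overlapped. A sterol regulatory element searched as TCACCCCAC stood in 0.555% of all genes with a promoter and in 1 of 15 cholesterol synthesis genes.

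The receptors for nucleic acids inside the cell rose nearly as a body, while the Toll-like receptors were divided. Of 19 cytosolic nucleic acid sensors and partners tested, 17 were higher and 0 lower, against 25.0% of all genes higher and 28.0% lower. Their median log2 fold change was 3.94, against 0.0 over all genes, and all 19 were above background on every PEC and every F4/80high array. The largest rises were in Ifi209 (6.62, SE 0.35), Ifi211 (6.03, SE 0.28) and Ifi203 (4.86, SE 0.37), which belong to the DNA-binding p200 family. Of 22 Toll-like receptors and adaptors, 10 were higher and 4 lower (median 0.40). Tlr2, the receptor for bacterial lipoproteins, was at 2.25, 1.87 and 2.18 in PECs and 6.78, 5.82 and 5.21 in F4/80high TAMs, a rise of 3.83 (SE 0.37, adjusted p 3.61e-05). Its adaptor Myd88 rose by 2.77 (SE 0.15), and Tlr12, which binds profilin of parasites, was at least 11.3-fold higher. Tlr4, the lipopolysaccharide receptor, was at 1.86, 1.92 and 2.07 in PECs and 0.09, −0.08 and −0.09 in F4/80high TAMs. It fell by 1.97 (SE 0.26, adjusted p 0.000229), as did Tlr13, a receptor for bacterial ribosomal RNA (−3.57, SE 0.25), and the receptor kinase Irak1 (−1.18, SE 0.20). No array of one group reached the range of the other for Tlr2, Tlr4 or Tlr13. Inflammasome components were higher in 9 and lower in 2 of 17 (median 0.84), with Casp4, the receptor for cytosolic lipopolysaccharide, up by 4.80 (SE 0.18).

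Most NF-kappaB subunits and inhibitors were higher. Of 19 tested, 14 were higher and 0 lower (median 2.29), and 18 and 19 of the 20 listed were above background on all PEC and all F4/80high arrays. Nfkbia, the inhibitor that holds NF-kappaB in the cytoplasm and is itself an NF-kappaB target, was at 3.99, 4.29 and 4.22 in PECs and 9.67, 9.27 and 9.38 in F4/80high TAMs. The rise was 5.27 (SE 0.18, adjusted p 1.59e-07), and the groups lay far apart. Nfkbiz rose by 4.93 (SE 0.38) and Nfkbie by 4.83 (SE 0.20), further members of the IkappaB family, of which Nfkbiz acts in the nucleus. Traf1, an adaptor of TNF receptors that stands in no list, was among the largest rises of all genes above background throughout, at 0.69, 1.25 and 0.66 in PECs and 7.38, 7.63 and 7.84 in F4/80high TAMs (rise 6.75, SE 0.23).

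Among interferon regulatory factors 5 of 9 were higher and 0 lower (median 0.59). So 55.6% were called, near the 53.1% of all genes, of which 25.0% were higher and 28.0% lower. Irf7, which drives the amplification of type I interferon, was at −0.12, 0.05 and 1.52 in PECs and 5.58, 6.29 and 6.12 in F4/80high TAMs, a rise of 5.52 (SE 0.48, adjusted p 1.87e-05). Irf1 rose by 4.26 (SE 0.23) and Irf9 by 1.70 (SE 0.17). Irf3, the factor that is present before stimulation, stood at −0.17 (SE 0.16, adjusted p 0.392) and did not pass; it was singled out after its value was seen. STAT factors, Janus kinases and interferon receptors were higher in 7 and lower in 1 of 15 (median 0.73). The share called, 53.3%, was also near the 53.1% of all genes. Stat2, the partner of IRF9, rose by 3.68 (SE 0.40), Stat5a by 4.17 (SE 0.28) and the kinase Jak2 by 3.28 (SE 0.23). The member that fell was Ifngr1, the receptor chain for interferon gamma (−1.10, SE 0.28).

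Feedback inhibitors of cytokine signalling were higher in 10 and lower in 3 of 17 (median 1.11). Socs1, which blocks Janus kinases, was at −1.90, −0.51 and −1.27 in PECs and 6.73, 6.30 and 6.69 in F4/80high TAMs, a rise of 7.80 (SE 0.38, adjusted p 7.75e-07). The phosphatase gene Dusp2 rose by 6.19 (SE 0.28), while Dusp4 (−2.68, SE 0.44) and Socs5 (−1.37, SE 0.24) fell. Dusp4 stood at −1.53 with slide as a block. TGF-beta and BMP signalling genes were higher in 5 and lower in 5 of 22, or 45.5% called against 53.1% of all genes. Their median was −0.42, and −0.31 with slide as a block. Tgfbi (2.44, SE 0.30) rose and the receptor Tgfbr1 (−1.82, SE 0.38) fell.

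**Figure D2:**
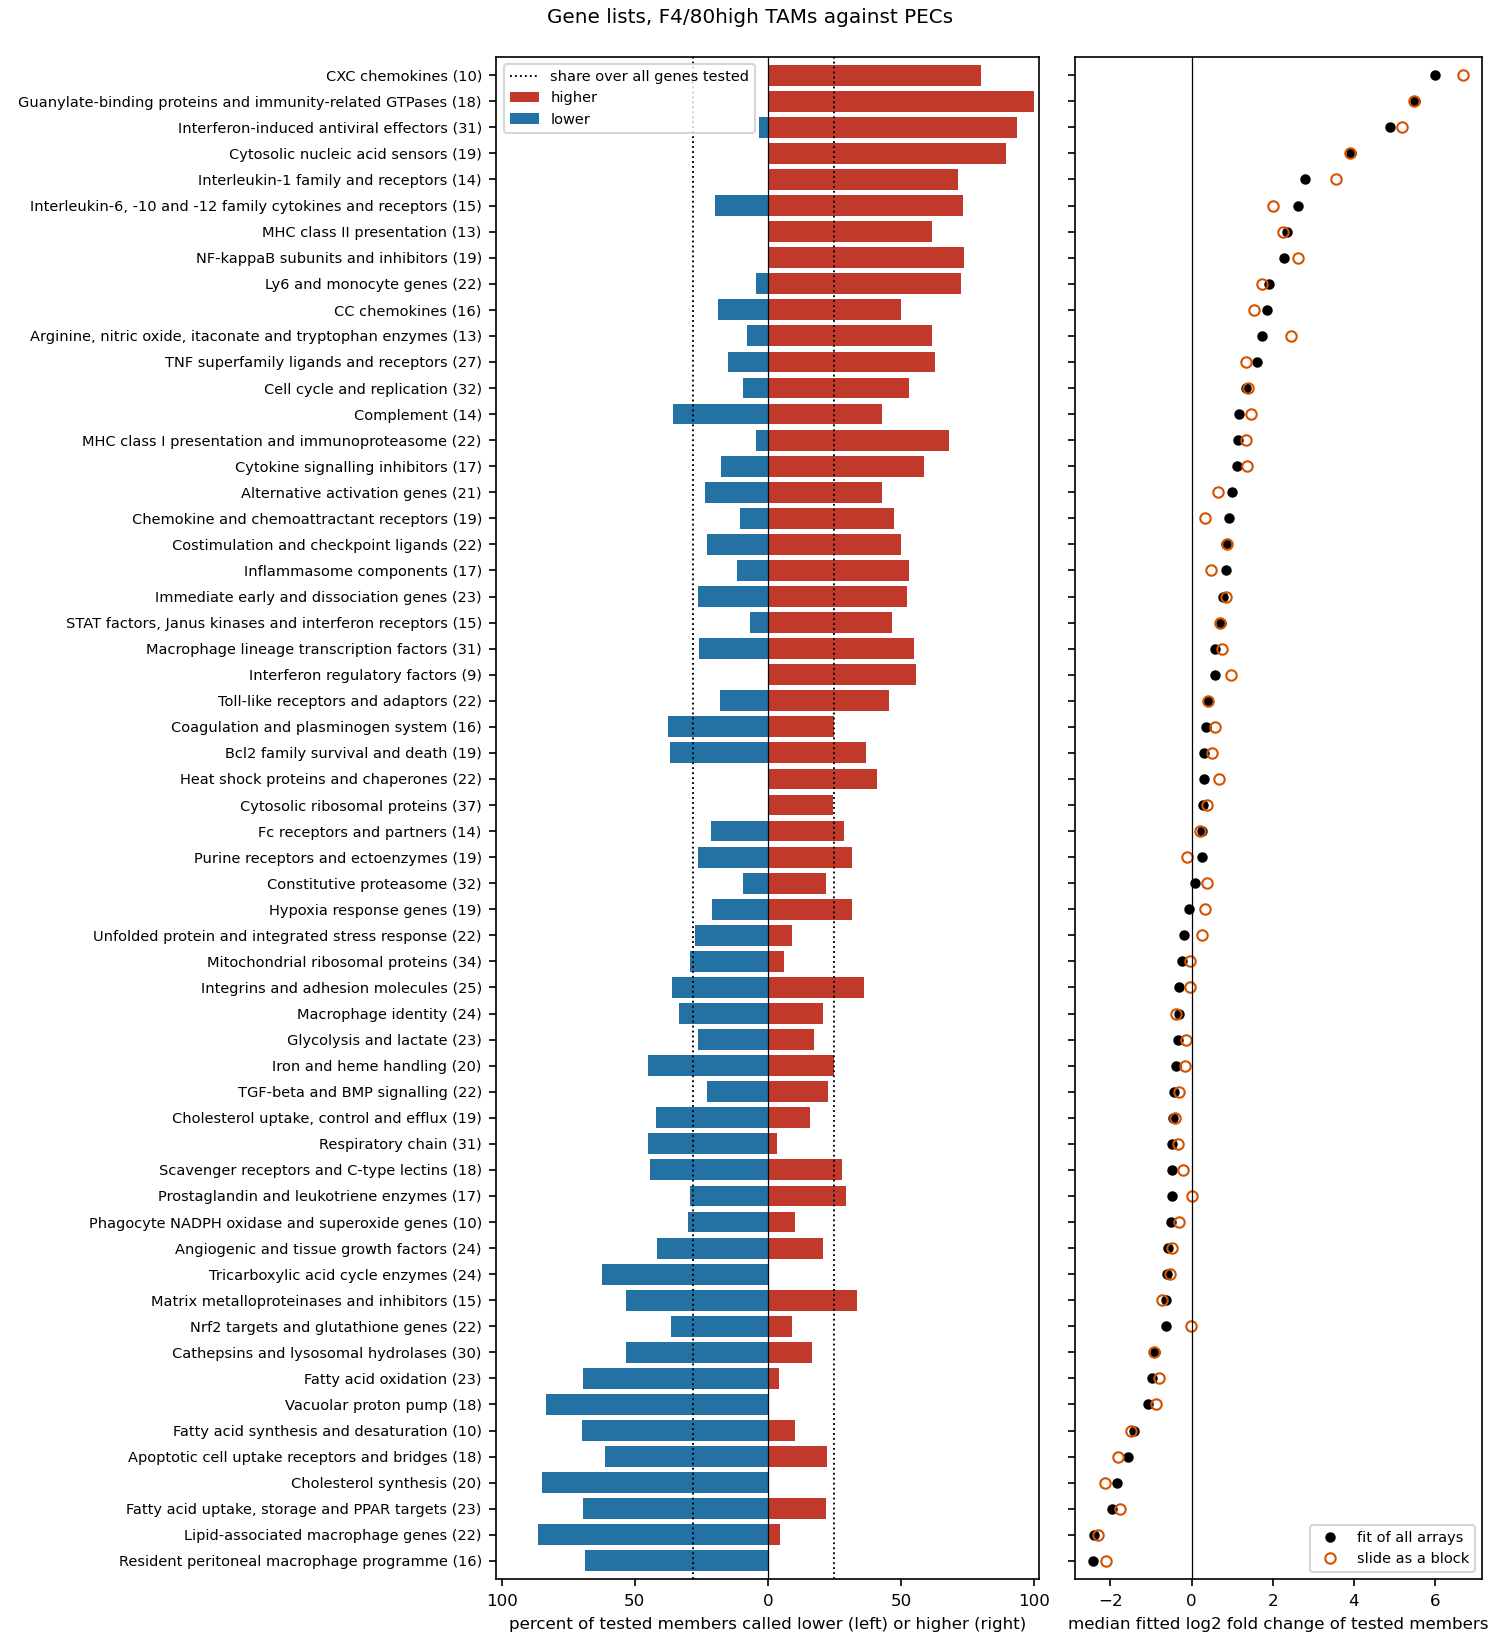
Left, the percent of tested members called higher (red) and lower (blue) in F4/80high TAMs for each gene list with at least 9 tested members (number in brackets), other cell types left out. Dotted lines mark 25.0% and 28.0%, the shares of all genes tested. Right, the median fitted log2 fold change with all PEC arrays (black) and with slide as a block (orange), bounds not applied. Interferon, chemokine and sensor lists stand at the top and lipid, resident macrophage and vacuolar lists at the bottom.

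Genes of secreted signals rose across several families, in some from PEC levels that the arrays did not measure. Of 10 CXC chemokines 8 were higher and 0 lower, and 4 of the 15 listed were above background on all PEC arrays against 10 on all F4/80high arrays. A member that passed the dim-probe filter through its TAM level alone had to be higher there, so these counts are partly set by the filter. Cxcl2, an attractant of neutrophils, was at −4.48, −3.26 and −3.25 in PECs and 4.74, 3.38 and 4.65 in F4/80high TAMs, at least 112-fold higher. Cxcl3 rose by 7.62 (SE 0.67, adjusted p 2.06e-05). Of 16 CC chemokines 8 were higher and 3 lower (median 1.23). Of the 18 listed, 10 and 13 were above background on all PEC and all F4/80high arrays, which partly sets this count. Ccl4, an attractant of monocytes and T cells, was at 1.98, 2.51 and 2.10 in PECs and 10.07, 9.73 and 9.77 in F4/80high TAMs, a rise of 7.66 (SE 0.22). Ccl5 was at −1.43, 1.04 and 1.59 in PECs and 10.94, 11.08 and 10.92 in F4/80high TAMs. The 3 TAM arrays lay close together, whereas PEC replicate 1 lay below the other PEC arrays. The chemokines that fell were Ccl6 (−2.64, SE 0.35), Ccl27a (−0.94, SE 0.22, not called within slide 1 alone) and the eosinophil attractant Ccl24, at least 2.47-fold lower. Of 19 chemokine and chemoattractant receptors 9 were higher and 2 lower (median 0.93, and 0.32 with slide as a block). Of the 27 listed, 9 and 15 were above background on all PEC and all F4/80high arrays, so the filter partly sets this count. Ccr7, which guides cells to lymph nodes, was at −3.78, −0.91 and −0.74 in PECs and 5.21, 5.35 and 5.02 in F4/80high TAMs, a rise of 7.01 (SE 0.72). The formyl peptide receptors Fpr2 (at least 41.6-fold) and Fpr1 (at least 36.2-fold) were above background on no PEC array.

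Of 14 interleukin-1 family genes 10 were higher and 0 lower (median 2.70). Of the 15 listed, 4 and 9 were above background on all PEC and all F4/80high arrays. The count is therefore partly set by the dim-probe filter. Il33, an alarmin that acts on type 2 lymphoid cells, was at −4.57, −4.80 and −4.85 in PECs and 2.79, 2.73 and 2.81 in F4/80high TAMs. It was at least 40.2-fold higher, and the 3 TAM arrays lay close together. The decoy receptor Il1r2 was at least 22.5-fold higher. Genes of the interleukin-6, interleukin-10 and interleukin-12 families were higher in 11 and lower in 3 of 15 (median 2.57). Without bounds the fitted median was 2.63, and 2.01 with slide as a block. Of the 22 listed, 10 and 14 were above background on all PEC and all F4/80high arrays, which partly sets this count. The anti-inflammatory Il10 was at least 63-fold higher beside Il6, and Il15, a growth factor for NK and memory T cells, rose by 5.39 (SE 0.40). The 3 that fell encode receptors, Il27ra (at least 5.48-fold), Il10rb (−1.09, SE 0.18) and Il6ra (−0.79, SE 0.23). Il6ra stood at −1.24 with slide as a block and lost its call without F4/80high replicate 1 (−0.68). TNF superfamily genes were higher in 17 and lower in 4 of 27 (median 1.51). Of the 30 listed, 16 and 23 were above background on all PEC and all F4/80high arrays, which partly sets this count. Tnfsf10, the death ligand TRAIL, was at least 70.4-fold and Tnfsf15 at least 60.7-fold higher. Those that fell included Tnfsf12, the ligand TWEAK (−1.93, SE 0.18), and Tnfrsf21 (−2.90, SE 0.44).

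Most members of both lists of interferon-induced effectors were higher. All 18 guanylate-binding proteins and immunity-related GTPases tested, which attack vacuoles of microbes, were higher (median 5.50). Of the 20 listed, 12 and 18 were above background on all PEC and all F4/80high arrays. The count is therefore partly set by the dim-probe filter. Gbp4 was at least 168-fold higher. Tgtp2 was at −1.79, −0.62 and −0.09 in PECs and 7.41, 7.41 and 7.67 in F4/80high TAMs, a rise of 8.33 (SE 0.52). Several members of this family and the Ifit and p200 families are near-identical copies, so probes may read more than 1 of them. Of 31 antiviral effectors 29 were higher and 1 lower (median 4.46). Of the 33 listed, 24 and 31 were above background on all PEC and all F4/80high arrays. This count too is partly set by the filter. Ifit3b was at −2.21, −2.43 and −1.04 in PECs and 6.87, 7.30 and 7.55 in F4/80high TAMs, a rise of 9.13 (SE 0.58, adjusted p 3.35e-06). The 1 that fell was Ifi27 (−1.61, SE 0.20, adjusted p 0.000143). With slide as a block 18 of 18 GTPases and 27 of 31 effectors were still higher.

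Antigen presentation genes were mostly higher in both classes. MHC class I and immunoproteasome genes were higher in 15 and lower in 1 of 22 (median 1.15), and all 22 were above background on every array of both groups. Nlrc5, the transactivator of class I genes, was at 0.73, 1.22 and 0.96 in PECs and 5.56, 5.92 and 5.73 in F4/80high TAMs, a rise of 4.77 (SE 0.55, adjusted p 0.000105). The peptide transporter Tap1 rose by 4.33 (SE 0.27) and the immunoproteasome subunit Psmb9 by 2.61 (SE 0.29). The member called lower was the chaperone Calr (−0.86), a call that did not hold with slide as a block (−0.46), without PEC replicate 2 (−0.83) or 3 (−0.69) and without F4/80high replicate 2 (−0.81) or 3 (−0.78). Of 13 MHC class II genes 8 were higher and 0 lower (median 1.73). Of the 15 listed, 9 and 11 were above background on all PEC and all F4/80high arrays, which partly sets this count. H2-Ab1 was at 6.20, 5.18 and 6.22 in PECs and 9.74, 9.56 and 9.21 in F4/80high TAMs, a rise of 3.64 (SE 0.32). The class II transactivator Ciita, singled out after its value was seen, stood at 0.02 (SE 0.30, adjusted p 0.964). By contrast the constitutive proteasome was higher in 7 and lower in 3 of 32 (7 and 0 with slide as a block), or 31.2% against 53.1% of all genes, with a median of 0.08.

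Costimulatory and checkpoint ligands were higher in 11 and lower in 5 of 22 (median 0.84). Cd40, the receptor for T cell help, was at −1.13, 0.78 and −0.05 in PECs and 8.03, 8.05 and 7.95 in F4/80high TAMs, a rise of 8.14 (SE 0.46, adjusted p 1.89e-06). The TAM arrays lay close together, and PEC replicate 1 was the lowest of the more widely spread PEC arrays. Icosl rose by 5.85 (SE 0.51) and Tnfsf9 by 5.27 (SE 0.58), ligands that stimulate T cells. Sirpa, the receptor for the signal CD47 that restrains phagocytosis, was at 7.0, 6.85 and 6.82 in PECs and 4.11, 2.99 and 2.49 in F4/80high TAMs. It fell by 3.69 (SE 0.35, adjusted p 3.03e-05), as did the checkpoint receptor Vsir (−2.98, SE 0.39) and Cd24a (−3.27, SE 0.52).

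Enzymes that macrophages use as effectors were also divided. Genes of arginine, nitric oxide, itaconate and tryptophan metabolism were higher in 8 and lower in 1 of 13 (median 1.74). Arg1 and Nos2, which compete for arginine, rose together: Arg1 was at 0.59, −0.54 and 1.68 in PECs and 4.25, 3.97 and 3.03 in F4/80high TAMs (rise 3.17, SE 0.51, adjusted p 0.000721). Nos2 was at 0.13, −0.61 and −1.24 in PECs and 5.88, 6.87 and 5.24 in F4/80high TAMs (rise 6.57, SE 0.44, adjusted p 4.83e-06). For both genes every TAM array lay above every PEC array. Il4i1, a phenylalanine and tryptophan oxidase, rose by 7.32 (SE 0.36). In the prostaglandin and leukotriene list 5 of 17 were higher and 5 lower (median −0.48), but 3 and 1 with slide as a block (median 0.02). Ptgs2, the inducible cyclooxygenase, was at −4.51, −4.39 and −4.64 in PECs and 4.98, 4.84 and 5.13 in F4/80high TAMs, at least 186-fold higher, and the arachidonate-releasing phospholipase Pla2g4a rose by 2.46 (SE 0.34). The thromboxane synthase Tbxas1 fell (−1.94, SE 0.27). The prostacyclin synthase Ptgis also fell (−4.64, SE 0.98), a call that did not hold with slide as a block (−3.72). Of 10 NADPH oxidase and superoxide genes 1 was higher, the mitochondrial dismutase Sod2 (2.01, SE 0.25), and 3 were lower, among them catalase, Cat (−2.09, SE 0.24). Nrf2 target and glutathione genes were higher in 2 and lower in 8 of 22 (4 and 4 with slide as a block). Mgst1, a membrane-bound glutathione transferase, was at 6.06, 5.87 and 6.21 in PECs and 0.27, 0.23 and −0.10 in F4/80high TAMs, a fall of 5.92 (SE 0.54, adjusted p 2.58e-05). Gstm1 (−3.46, SE 0.19) and Gpx4, which protects membranes from lipid peroxide (−2.23, SE 0.23), fell as well.

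Iron and heme genes were higher in 5 and lower in 9 of 20 (3 and 9 with slide as a block). Spic, the transcription factor of macrophages that recycle red cells, was at −2.42, −1.47 and −3.08 in PECs and 5.13, 5.70 and 6.02 in F4/80high TAMs, a rise of 7.94 (SE 0.45, adjusted p 1.94e-06). It was above background on 1 of 3 PEC arrays and all TAM arrays. The ferroxidase Cp was at least 31.5-fold and the iron hormone gene Hamp at least 10.6-fold higher. The transferrin receptor Tfrc (−3.06, SE 0.19), the heme transporter Slc48a1 (−2.29, SE 0.29) and the biliverdin reductase Blvra (−1.88, SE 0.20) fell.

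**Figure D3:**
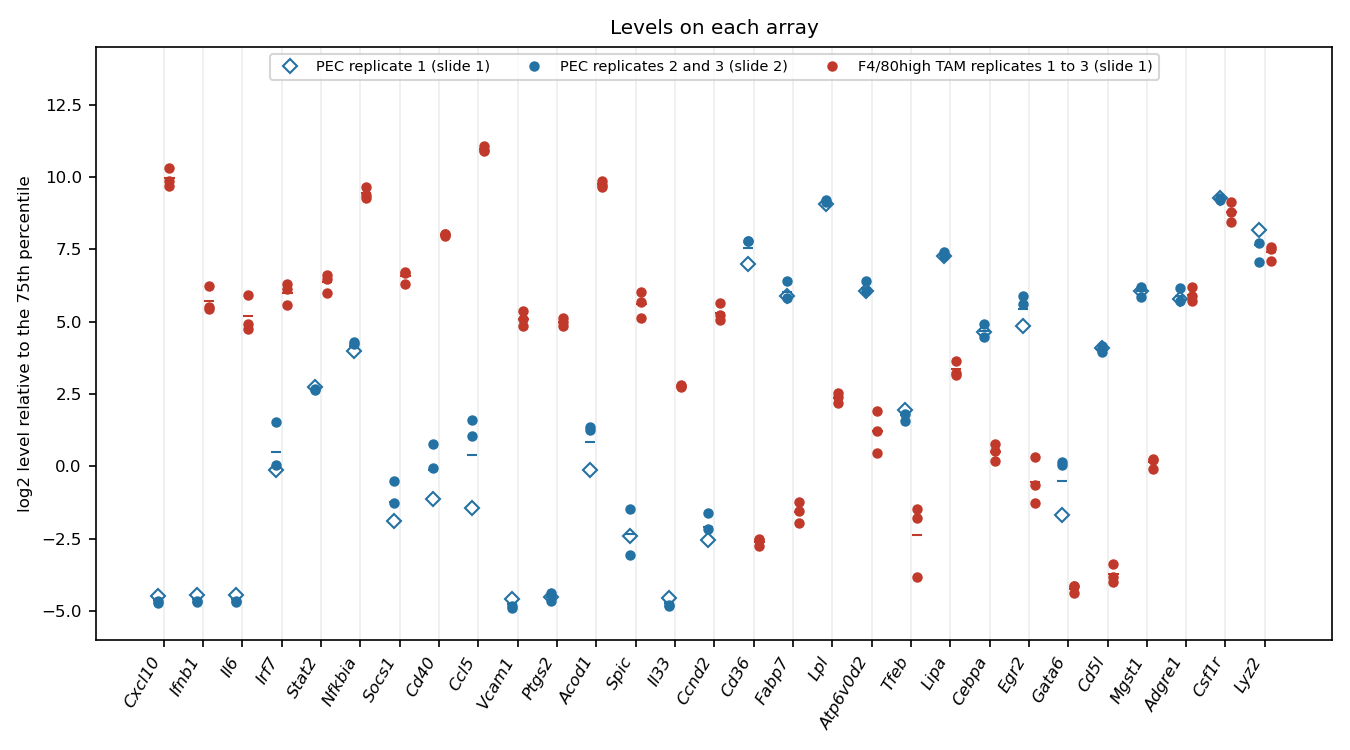
Level of selected genes on each array, in log2 relative to the array's 75th percentile; bars mark the mean of 3 arrays. Open diamonds are PEC replicate 1, on slide 1 with the TAM arrays, filled blue circles PEC replicates 2 and 3, on slide 2, and red circles the 3 F4/80high arrays. The groups lie apart for the genes from Cxcl10 to Mgst1 and overlap for Adgre1, Csf1r and Lyz2; Gata6, Csf1r and Lyz2 were added as known markers after their values were seen.

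Most genes of lipid uptake, storage and oxidation were lower in F4/80high TAMs. Of 23 fatty acid uptake, storage and PPAR target genes 16 were lower and 5 higher (median −1.38), 13 and 2 with slide as a block. Lpl, the lipoprotein lipase, was at 9.06, 9.15 and 9.19 in PECs and 2.17, 2.39 and 2.53 in F4/80high TAMs, and Fabp7, a fatty acid carrier, at 5.88, 5.83 and 6.40 and −1.54, −1.97 and −1.23. Both groups of arrays were tight and lay apart, with log2 fold changes of −6.77 for Lpl (SE 0.18) and −7.61 for Fabp7 (SE 0.30). Dgat2, the last enzyme of triglyceride synthesis (3.35, SE 0.65), and Acsl1, which activates fatty acids (2.23, SE 0.17), rose against that direction. Of 23 fatty acid oxidation genes 16 were lower and 1 higher (median −0.97), and 22 were above background on every array of each group. Echs1, the second enzyme of the mitochondrial spiral, fell by 2.91 (SE 0.20, adjusted p 5.30e-06). Fatty acid synthesis and desaturation genes were lower in 7 and higher in 1 of 10 (median −1.41; 5 and 0 with slide as a block), with the desaturase Scd2 at −3.52 (SE 0.48).

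Of 20 cholesterol synthesis genes 17 were lower and 0 higher (median −1.84). In the list of cholesterol uptake, control and efflux 8 of 19 were lower and 3 higher. Ch25h makes 25-hydroxycholesterol, an interferon-induced sterol that shuts down cholesterol synthesis. It was at −3.93, −3.51 and −1.80 in PECs and 5.83, 5.55 and 4.65 in F4/80high TAMs, a rise of 8.43 (SE 0.60, adjusted p 6.19e-06). Mylip, which degrades the LDL receptor, rose by 1.91 (SE 0.28). The sterol carrier Stard4 was at least 14-fold lower, and Soat1, which esterifies cholesterol (−3.19, SE 0.21), and Nceh1, which frees it again (−3.69, SE 0.30), both fell. The lipid-associated macrophage genes, a programme of foam cells and adipose tissue macrophages, were lower in 19 and higher in 1 of 22 (median −2.40), and 22 and 21 were above background on all PEC and all F4/80high arrays. Gpnmb was at 9.68, 9.44 and 9.64 in PECs and −0.65, 0.57 and 1.03 in F4/80high TAMs, the widest gap among members measured in both groups. The exception was the phosphatase Acp5 (2.51, SE 0.33).

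Transcripts of the acidic compartment in which macrophages degrade their cargo were mostly lower as well. Several of them, such as Atp6v0d2, Lipa and Ctsb, also stand among the lipid-associated macrophage genes, so the counts of these lists are not independent. Of 18 vacuolar proton pump subunits, all above background on every array of both groups, 15 were lower and 0 higher (median −1.08). With slide as a block 11 were lower. Atp6v0d2 was at 6.07, 6.40 and 6.06 in PECs and 1.24, 0.47 and 1.91 in F4/80high TAMs, a fall of 4.97 (SE 0.32, adjusted p 3.92e-06). Atp6v0a1 fell by 5.00 (SE 0.26) and Atp6v1c1 by 2.34 (SE 0.18). Cathepsins and lysosomal hydrolases were lower in 16 and higher in 5 of 30 (median −0.89), 15 and 2 with the block. Tfeb, the master transcription factor of lysosome genes, was at 1.96, 1.56 and 1.82 in PECs and −3.83, −1.49 and −1.80 in F4/80high TAMs, a fall of 4.16 (SE 0.52, adjusted p 0.000162). Lipa, the lysosomal acid lipase, was at 7.28, 7.26 and 7.41 in PECs and 3.65, 3.22 and 3.17 in F4/80high TAMs, a fall of 3.97 (SE 0.26). Ctsc, which activates granule proteases, rose by 4.10 (SE 0.16).

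Receptors and bridges for the uptake of dying cells were mostly lower. Of 18 tested 11 were lower and 4 higher (median −1.56), 10 and 2 with slide as a block. Mfge8, a bridge from apoptotic cells to integrins, was at 10.59, 9.62 and 9.97 in PECs and 3.29, 3.24 and 3.47 in F4/80high TAMs, a fall of 6.73 (SE 0.26), and its integrin partner Itgb3 was at least 21.3-fold lower. The receptor kinase Axl rose, from 2.73, 2.61 and 2.30 in PECs to 6.58, 6.41 and 6.27 in F4/80high TAMs (3.88, SE 0.21, adjusted p 1.36e-06). Scavenger receptors and C-type lectins were higher in 5 and lower in 8 of 18. Marco, a receptor for bacteria and particles, fell by 7.09 (SE 0.57), while Clec4e, the sensor of mycobacterial glycolipid, rose by 4.71 (SE 0.46). Fc receptors and partners were higher in 4 and lower in 3 of 14, near the background, with Fcgr4 up by 4.01 (SE 0.58).

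Transcription factors and surface genes of macrophage identity showed which parts of the lineage programme differed. Of 31 macrophage lineage factors 17 were higher and 8 lower (median 0.59), 13 and 5 with slide as a block. Cebpd (3.40, SE 0.28) and Batf (3.34, SE 0.40) rose most. Egr2 was at 4.87, 5.87 and 5.61 in PECs and 0.32, −1.26 and −0.65 in F4/80high TAMs, a fall of 5.98 (SE 0.44, adjusted p 7.62e-06). Cebpa, needed for granulocyte and macrophage formation, was at 4.63, 4.48 and 4.94 in PECs and 0.77, 0.52 and 0.19 in F4/80high TAMs, a fall of 4.19 (SE 0.23, adjusted p 1.63e-06). The resident peritoneal macrophage programme was lower in 11 and higher in 0 of 16, with 14 and 8 of 24 listed above background on all PEC and all F4/80high arrays, so the count is partly set by the filter. Cd5l, a secreted survival factor of tissue macrophages, was at 4.08, 3.95 and 4.16 in PECs and −3.84, −3.39 and −3.99 in F4/80high TAMs, at least 78.2-fold lower. Gata6 itself, which stands outside the naming rule and was added after its values were seen, was at −1.68, 0.16 and 0.03 in PECs and −4.39, −4.15 and −4.15 in F4/80high TAMs, at least 3.32-fold lower. PEC replicate 1 had the lowest Gata6 of the PEC arrays. Macrophage identity genes were higher in 5 and lower in 8 of 24 (median −0.32; 4 and 5 with the block), so 54.2% were called, near the 53.1% of all genes. Csf1, the macrophage growth factor, rose by 4.53 (SE 0.69), and Itgb2, the common chain of leukocyte integrins, fell by 2.61 (SE 0.19).

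Ly6 and monocyte genes were higher in 16 and lower in 1 of 22 (median 1.90). Of 24 listed, 13 and 19 were above background on all PEC and all F4/80high arrays, which partly sets this count. Ly6a, which interferon also induces, was at least 134-fold higher, and Ly6c1 was at −2.35, −1.88 and −1.37 in PECs and 4.82, 5.38 and 5.08 in F4/80high TAMs (rise 6.96, SE 0.49). Ms4a8a fell by 4.90 (SE 0.42). Alternative activation genes were divided, 9 higher and 5 lower of 21 (median 1.00). Fcrls rose by 7.01 (SE 0.52), and Retnla and the lectin Clec10a (−3.64, SE 0.96) were lower. With slide as a block Clec10a stood at −1.07 and did not pass.

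Genes by which macrophages reshape tissue moved both ways. Matrix metalloproteinases and inhibitors were higher in 5 and lower in 8 of 15 (5 and 5 with slide as a block). Mmp14, the membrane-bound activator of other proteases, was at 1.75, −0.46 and 0.95 in PECs and 4.70, 5.12 and 4.85 in F4/80high TAMs, a rise of 4.14 (SE 0.46, adjusted p 8.26e-05). Mmp13 rose by 3.33 (SE 0.77), or 5.50 with slide as a block, while Mmp27 was at least 6.85-fold lower. Angiogenic and tissue growth factors were higher in 5 and lower in 10 of 24, but in 6 and 6 with slide as a block. The vasoconstrictor Edn1 (at least 33.7-fold), the placental growth factor Pgf (17.7-fold) and the lymphatic factor Vegfc (10.8-fold) were higher, and none was above background on a PEC array. Vegfa was at 0.36, 1.64 and 1.70 in PECs and −0.07, 0.20 and −0.78 in F4/80high TAMs, a fall of 1.45 (SE 0.44, adjusted p 0.0198). That call was lost with slide as a block (−0.57), with the mean of its probes (−0.84), with no filter on dim probes (−1.45), without PEC replicate 2 (−1.24) or 3 (−1.22) and without F4/80high replicate 3 (−1.17). Coagulation and plasminogen genes were higher in 4 and lower in 6 of 16. The protease inhibitor Serpina3g was at least 212-fold higher. Coagulation factor F7 (−7.01, SE 0.25), thrombomodulin, Thbd (−4.27, SE 0.44), and urokinase, Plau (−2.25, SE 0.33), were lower. Complement genes were higher in 6 and lower in 5 of 14 (6 and 3 with the block). Cfb (4.57, SE 0.36), C3 (3.82, SE 0.48) and C1qa (2.77, SE 0.42) rose, whereas the complement receptor genes Vsig4 (at least 54.5-fold) and Itgax (−3.17, SE 0.30) fell.

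Integrins and adhesion molecules were higher in 9 and lower in 9 of 25. Vcam1, which binds the integrin of lymphocytes and monocytes, was at −4.61, −4.83 and −4.89 in PECs and 5.36, 4.85 and 5.08 in F4/80high TAMs, at least 202-fold higher, and Icam1 rose by 5.22 (SE 0.29). Purine receptors and ectoenzymes were higher in 6 and lower in 5 of 19, so that 57.9% were called against 53.1% of all genes, and in 4 and 3 with slide as a block. The adenosine receptors Adora2b (3.66, SE 0.29) and Adora2a (3.62, SE 0.72) and the adenosine-producing enzyme Nt5e (2.44, SE 0.53) rose. The ATP and ADP receptor P2ry1 was at least 9.72-fold lower, and the kinase Adk, which removes adenosine, fell by 2.28 (SE 0.20).

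Counts for several housekeeping lists fell with slide as a block, where 1 PEC array stands as the control and fewer of all genes were called. Their medians are therefore given for both fits. Tricarboxylic acid cycle enzymes were lower in 15 and higher in 0 of 24 (median −0.61, and −0.53 with slide as a block). The largest fall was in the cytosolic isocitrate dehydrogenase Idh1 (−3.45, SE 0.23). Respiratory chain genes were lower in 14 and higher in 1 of 31 (median −0.47, and −0.34 with the block), with Ndufa4 at −2.33 (SE 0.19). Mitochondrial ribosomal proteins were lower in 10 and higher in 2 of 34 (median −0.23, and −0.03 with the block). Cytosolic ribosomal proteins were higher in 9 and lower in 0 of 37 (median 0.28, and 0.37 with the block). Glycolysis genes were higher in 4 and lower in 6 of 23, and hypoxia response genes higher in 6 and lower in 4 of 19 (4 and 2 with the block), which is 43.5% and 52.6% of the members against 53.1% of all genes. In the fit of all arrays 62.5% of tricarboxylic acid cycle and 48.4% of respiratory chain genes were called. For mitochondrial and cytosolic ribosomal proteins the shares were 35.3% and 24.3%, below the 53.1% of all genes. Pfkfb3, an activator of glycolysis, rose by 2.20 (SE 0.32), and Slc2a6 by 2.48 (SE 0.27). The glucose transporter Slc2a1 fell by 1.45 (SE 0.36), a call that did not hold with slide as a block (−0.54). Of the hypoxia genes, Ddit4 rose by 3.56 (SE 0.35) and Bnip3l fell by 3.67 (SE 0.18).

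Immediate early and heat shock genes can move with how tissue is dissociated, and their part in the results above was not tested. Immediate early and dissociation genes were higher in 12 and lower in 6 of 23 (median 0.77). Ier3 rose by 5.46 (SE 0.49), and Rhob (−2.96, SE 0.22) and Atf3 (−2.96, SE 0.33) fell. Fos and Jun, singled out after their values were seen, stood at −0.45 (SE 0.30, adjusted p 0.227) and −1.53 (SE 0.28, adjusted p 0.00148). Heat shock genes were higher in 9 and lower in 0 of 22 (median 0.30). So 40.9% were called, against 53.1% of all genes called and 25.0% higher. Hspa1a was at −2.21, −1.39 and −1.62 in PECs and 5.16, 4.91 and 5.08 in F4/80high TAMs, and Hspb1 rose by 5.10 (SE 0.48). Unfolded protein response genes were higher in 2 and lower in 6 of 22, or 36.4% called. Their median was −0.18, but 0.27 with slide as a block. The chaperone Hspa5 rose by 1.20 (SE 0.30), against the direction of the 6 members called lower. Cell cycle genes were higher in 17 and lower in 3 of 32 (8 and 1 with the block), with 24 and 31 of 36 listed above background on all PEC and all F4/80high arrays. Ccnd2, a cyclin of the step from G1 to S phase, was at −2.56, −1.61 and −2.17 in PECs and 5.24, 5.64 and 5.05 in F4/80high TAMs, a rise of 7.42 (SE 0.35, adjusted p 7.06e-07), and 7.87 with the block. Survival and death genes were divided, 7 higher and 7 lower of 19. The death gene Bcl2l11 (3.80, SE 0.24) and the inhibitors of death Cflar (3.76, SE 0.41) and Birc3 (3.53, SE 0.22) rose together, and the survival genes Bcl2 (−2.65, SE 0.42) and Bcl2l1 (−2.63, SE 0.39) fell together.

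Beyond the lists, the largest changes among genes above background on all 6 arrays gave a further view of the contrast. Rnd1, a GTPase that loosens the actin skeleton, was at −2.26, −1.71 and −2.38 in PECs and 6.39, 4.86 and 3.92 in F4/80high TAMs, a rise of 7.17 (SE 0.64). Mefv, which encodes the inflammasome sensor pyrin (6.25, SE 0.45), Gpr84, a receptor for medium-chain fatty acids (5.76, SE 0.42), Tmem176b (6.33, SE 0.38), the junction protein gene F11r (6.25, SE 0.23) and Zmynd15 (6.23, SE 0.38) were of like size. Plagl1, a zinc finger factor, rose by 6.55 on its brightest probe, while its other kept probes ranged from 0.57 to 6.57. Cdk18 was at 6.83, 7.52 and 7.27 in PECs and 0.56, −0.51 and −0.16 in F4/80high TAMs, the largest fall of this group (−7.25, SE 0.28). The ubiquitin ligase Rnf128 (−6.14, SE 0.36), the endoplasmic reticulum gene Wfs1 (−5.64, SE 0.26), Lhfpl2 (−5.62, SE 0.48), the lipid phosphatase Plpp3 (−5.49, SE 0.69), the helicase Zranb3 (−5.41, SE 0.44) and Tbc1d2 (−5.39, SE 0.30) followed. The growth factor receptor Fgfr1 fell by 6.13 on its brightest probe, and its other kept probes ranged from −5.81 to 0.12.

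Markers of other cell types were read on the same arrays, since a sort or a lavage can carry other cells; in bulk samples fewer cells of a type and less RNA per cell cannot be told apart. Summed linear levels are given in units of the array's 75th percentile. The 16 neutrophil markers on the array summed to between 132.0 and 172.0 in PECs and between 231.0 and 337.0 in F4/80high TAMs, with 7 above background on all arrays of each group. Of these markers 4 of 16 tested were higher and 2 lower, 1 and 1 with slide as a block. In the fit of all arrays 37.5% of them were called, against 53.1% of all genes. S100a9, abundant in neutrophils and monocytes, was at −4.73, −1.58 and −0.53 in PECs and 6.12, 2.14 and 4.93 in F4/80high TAMs (rise 6.68, SE 1.17). With slide as a block the rise was 9.13, but against PEC replicate 1 alone, whose −4.73 lies at the dim end of the PEC scale. The rise of 6.68 rests partly on that value too. By contrast Mmp8, a granule collagenase, was at least 19.8-fold lower. The 13 dendritic cell markers summed to between 130.0 and 193.0 in PECs and between 292.0 and 321.0 in F4/80high TAMs, with 2 and 7 above background throughout. Their defining factor Zbtb46 was at least 14-fold higher and Fscn1 at least 6.68-fold higher, and Batf3 fell by 2.08 (SE 0.45, not called within slide 1 alone). The 15 T cell markers summed to between 11.9 and 18.2 in PECs and between 14 and 18.2 in TAMs, the 10 NK cell markers to between 9.35 and 11.6 and between 9.81 and 12. Lck rose by 3.35 (SE 0.49) and Lat was at least 18.8-fold lower. The 9 B cell markers summed to between 3.60 and 4.84 in PECs and between 2.04 and 2.30 in TAMs. Of these, 1 was above background on all arrays of each group. The 14 mast cell and eosinophil markers summed to between 7.05 and 9.62 in PECs and between 18.5 and 32.3 in TAMs. Only 1 and 3 were above background on all PEC and all F4/80high arrays, and 9 and 11 on none, so these sums rest on few genes. In TAMs the histidine decarboxylase Hdc was at least 141-fold higher. Siglecf, a receptor of eosinophils and some macrophages, was at least 28.3-fold lower. The 16 fibroblast and stroma markers summed to between 7.60 and 13.1 in PECs and between 15.3 and 23 in TAMs, with 6 above background on all arrays of each group. Fap, a protease of tumour stroma, was at least 43.3-fold higher, Acta2 fell by 2.12 (SE 0.26) and Col1a1 was at least 1.17-fold lower, a call lost with normexp (−0.14, adjusted p 0.376). Sums for endothelial (30.7 to 52.8 against 39.3 to 48.3), mesothelial (0.380 to 0.511 against 0.446 to 1.33) and erythroid and platelet markers (51.8 to 94.3 against 60.2 to 74.8) overlapped between PECs and TAMs, as did those of T and NK cells. The part of these markers in the results above was not tested.

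PEC replicate 1 differed from the other PEC arrays more than these differed from each other. It lay more than 1 from their mean on the log2 scale for 1159 genes and more than 2 for 137, while PEC replicates 2 and 3 lay more than 1 apart for 512 genes and more than 2 for 44. With the limma slide term, 10 genes or 0.0607% passed the adjusted threshold between PEC replicate 1 and the other two, 7 higher and 3 lower in replicate 1, and 1772 had an unadjusted p below 0.05. Among genes above background on all PEC arrays, the 1 named by the rule was Prg4, a lubricating proteoglycan of resident peritoneal macrophages, at −1.22, 1.24 and 1.67 in PECs (−2.68, SE 0.26, adjusted p 0.0144). F4/80high arrays lay at −4.33, −4.10 and −4.28, below all PEC arrays. None of them was above background on this probe and another probe of the gene was on 1, so no fold is given. Slide and sample cannot be told apart for this array.

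**Figure D4:**
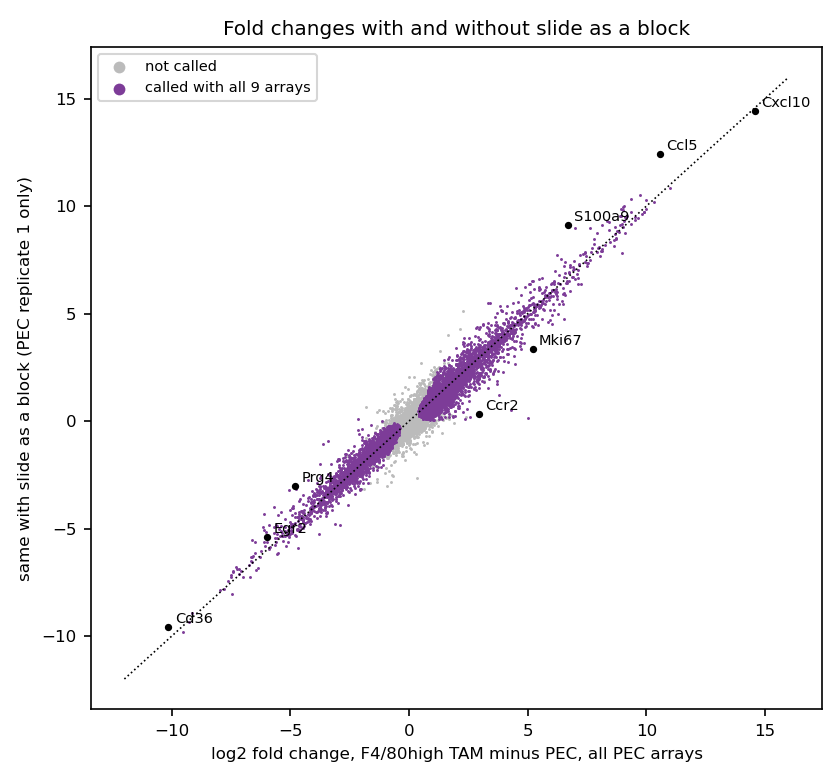
Log2 fold change of each gene, F4/80high TAM minus PEC, with all 3 PEC arrays (x axis) and with slide as a block, which leaves PEC replicate 1 as the control (y axis). Purple points are the 8739 genes called with all arrays, grey points the others, and the dotted line marks equal values. Most large changes lie along the line, S100a9 and Ccl5 above it, and Ccr2 and Mki67 below it.

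The F4/80low arrays gave a second reading of some of these genes. Over all genes 5369 or 32.6% differed between F4/80high and F4/80low TAMs, a comparison within slide 1. Of the 8739 genes called against PECs 3636 did so, and of the 317 genes that the naming rule took from that comparison 198. These genes were chosen by their levels on the same F4/80high arrays, so both shares are partly set by that choice. Ifnb1 and Irf7 were above background on every array of both subsets: Ifnb1 was at 1.24, 1.99 and 1.47 in F4/80low TAMs (4.16 higher in F4/80high, adjusted p 1.54e-05), and Irf7 at 2.57, 3.65 and 3.90 (2.62, adjusted p 0.00292). Cd36 was at −3.05, −1.86 and −3.03 in F4/80low TAMs, above background on no array of either subset, so no difference is given. Il33 was at −4.42, −1.76 and −2.47 in F4/80low TAMs, above background on 1 of 3 arrays. The fitted difference of 5.66 (adjusted p 0.000123) therefore rests partly on signals below background. Spic was at 4.29, 5.62 and 4.84 in F4/80low TAMs, and its difference of 0.70 did not pass (adjusted p 0.276). Vcam1 was at 2.71, 1.37 and 1.92 in F4/80low TAMs (3.10 higher in F4/80high, adjusted p 0.000152). The comparisons of both subsets share the PEC arrays, so their values are given side by side only.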

How the data were processed

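Messenger RNA of 3 PEC, 3 F4/80high TAM and 3 F4/80low TAM samples was read on single-colour Agilent arrays. The deposited files hold linear intensity values, background-subtracted by Agilent Feature Extraction per the file headers, and a table of log2 values of 9703 probes deposited by the authors, whose normalization is not given in the sources used here; its scale and direction were read against the scanner values (r 0.96 to 0.978), its column medians lie between 8.26 and 8.35, and it served as an alternative.

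Outlier spots were left out, spots of a probe were averaged, and log2 intensity was set relative to the 75th percentile of non-control spots. Of 55681 probes, 26413 took their symbol from RefSeq by accession, 3093 of them renamed, and 29268 kept the file's name. The filter asked for a probe well above background on every array of some group (21206 probes). The brightest of these stood for its gene (16469 genes, 1625 known by a chromosome range alone). A list member that passed through 1 group alone had to be higher there. Counts of lists with such members are partly set by the filter. Groups were compared with limma 3.58.1 (lmFit, eBayes) in R 4.3.3, two-sided, at a Benjamini-Hochberg adjusted p of 0.05; the steps were tested on simulated data. Where a gene exceeded background throughout 1 group and no probe of it did so in the other, the fold is a bound, approximate because the limit is not specific to the probe, and enters a list's median at that bound.

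The text names Adgre1, the 8 largest rises and falls outside the lists, the 5 largest bounds each way, up to 3 rises and falls per list among members with no overlap between the groups, and the largest differences between TAM subsets and between slides. The 68 lists and these members were chosen with earlier results of these data known. Some genes, such as Cd36, stand in more than 1 list, so counts of lists that share members are not independent. Alternatives were normexp, quantile or median scaling, other probe filters and names, slide or replicate blocks, the deposited table and leaving out each replicate. The same-numbered PEC and F4/80high arrays had residual correlations of 0.04, −0.10 and 0.01, so replicate numbers were not taken as pairs. Promoters are those of RefSeq on GRCm38.p6.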

Additional observations from a re-analysis of the deposited data

Results flagged for a closer look

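Among genes named in the comparison with PECs, the largest fitted differences between the TAM subsets were tested as F4/80high minus F4/80low within slide 1, where limma called 32.6% of all genes. Higher in F4/80high TAMs were Il33 by 5.66 on the log2 scale, the complement gene C1qa by 4.73, the monocyte attractant Ccl12 by 4.60 and Fcrls by 4.36. Lower were the neutrophil genes Retnlg (−7.73), Mmp8 (−7.27 as fitted) and S100a9 (−6.30) and the collagen-degrading cathepsin gene Ctsk (−6.28). Mmp8 was above background on no F4/80high array, so it was at least 50.7-fold lower there and its fitted value has no rank. Il33 was above background on 1 of 3 F4/80low arrays and Retnlg on 2 of 3 F4/80high arrays, so their fitted values rest partly on signals below background. No cause of these differences was tested.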

How the results depend on the processing

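The count of 8739 genes stayed within 1.5 times under all alternatives run except slide as a block (5633 genes, 2715 higher and 2918 lower) and slide 1 alone (4897, 2409 higher and 2488 lower), which leave 1 PEC array; the deposited table, with 8173 genes tested, gave 2741 higher. Leaving out single replicates gave 7015 to 8572 genes (3261 to 4097 higher, 3754 to 4475 lower). PEC replicate 1 against the others gave 24 genes with normexp instead of 10. Signs reversed for Ccr6 (0.07) and Zap70 (0.04) with normexp, and for Rps3 (−0.07) and Zap70 (0.07) with the mean of probes; the cause was not tested. Of 317 named genes, 48 lost their call with slide as a block and 14 with normexp; in the deposited table, which holds 283 of them, 101 had a fold smaller by over 1.5 times. Fitted list medians moved by over 0.236 for 33 of 68 lists with normexp, 32 of 68 with slide as a block and 34 of 67 in the deposited table. The replicate block called 8588 genes, 4 named genes lost their call under it, and not every array correlated best with its own number (PEC replicate 1 with F4/80high replicate 2 at 0.11). Median centring moved the median of all genes by −0.16, the deposited table by −0.20 and no filter on dim probes by 0.29. The 198 named genes that differed between TAM subsets ranged from 162 to 198 without single replicates, with alternatives chosen after seeing the data. A bound is given for a gene above background throughout 1 group and, by any probe, on no array of the other. Genes above background on only some arrays of the dimmer group keep fitted folds, which rest partly on signals below background.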
